A study of Mus musculus with 4 samples.

Results

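The 39 genes described here are germline and cancer-testis genes, which in the mouse are active mainly in germ cells and silent in most somatic tissues. They were taken by symbol from a list of names, and each was found once among the 54838 Ensembl genes of the files. RNA sequencing of total RNA had been done on Hepa1-6 cells, a mouse hepatoma line. The shSet libraries came from Hepa1-6 cells labelled as a Setdb1 knockdown and the shNC libraries from Hepa1-6 cells labelled as Setdb1 wild type, with 2 libraries in each group, an shRNA named in the titles of both and no other treatment or time given. The description of the series speaks of subclones, and the labels do not say whether the libraries of a group are separate cultures or subclones, so each p-value reflects the scatter of these particular libraries, part or all of which may be technical. The question addressed is how the RNA of these genes differs when Setdb1 is knocked down.

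Setdb1 is a histone methyltransferase of histone H3 (lysine 9) that keeps retroelements and a number of germline genes silent. In germ cells, PIWI proteins carry small piRNAs in perinuclear granules called nuage and silence transposons with them, while other proteins build the axes and the synaptonemal complex along which meiotic chromosomes pair. Many of these genes are kept silent in somatic cells by DNA methylation of their promoters and by a Polycomb complex that contains Pcgf6, L3mbtl2, Mga, Max and E2f6. Mga with Max is known to bind the E-box CACGTG, and E2f6 to bind E2F-type sites such as TTCCCGC. Cancer-testis genes, such as the Mage family, are germline genes that some tumours express.

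Setdb1 (chromosome 3, 95323525 to 95357202, minus strand, GRCm38) had expected counts of 215 and 168 in the shSet libraries, against 1003 and 1159.6 in the shNC libraries. Both shSet libraries therefore held less Setdb1 RNA than both shNC libraries, as labelled. The means were 9.77 ± 1.68 CPM in shSet cells and 55.3 ± 5.85 CPM in shNC cells (counts scaled to library size, CPM; SD, n = 2 each), a log2 fold change of -2.49 (SE 0.182, edgeR quasi-likelihood test with Benjamini-Hochberg adjusted p = 0.00015), which leaves 17.9% of the shNC level.

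The promoters of 6 members are printed here because 4 of them, Tuba3a, Tdrd9, Hormad2 and Tex101, are the members with both shSet libraries above both shNC libraries, while Tuba3b is the near copy of Tuba3a and Brdt is an E-box gene whose groups overlapped. Among all tested genes 25.4% had both shSet libraries above, and no share was taken for untested genes such as Tdrd9 and Tex101. The 6 were picked by their values, and a link of motif and change was not tested. Each run is the 250 bases before the gene's start in RefSeq (GRCm38.p6), 5′ to 3′ on the gene's strand, with any E-box (CACGTG) or E2F-type motif (TTCCCGC, or GCGGGAA on the other strand) in capitals. The positions are chr6:125286082-125286331 (minus) for Tuba3a, chr6:145615713-145615962 (plus) for Tuba3b, chr12:111971309-111971558 (plus) for Tdrd9, chr5:107330944-107331193 (plus) for Brdt, chr11:4441083-4441332 (minus) for Hormad2 and chr7:24672051-24672300 (minus) for Tex101.
Tuba3a: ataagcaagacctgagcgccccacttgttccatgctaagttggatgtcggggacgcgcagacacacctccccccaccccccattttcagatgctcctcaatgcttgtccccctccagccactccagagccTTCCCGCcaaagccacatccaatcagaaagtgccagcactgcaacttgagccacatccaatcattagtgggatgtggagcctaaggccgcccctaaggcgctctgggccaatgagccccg
Tuba3b: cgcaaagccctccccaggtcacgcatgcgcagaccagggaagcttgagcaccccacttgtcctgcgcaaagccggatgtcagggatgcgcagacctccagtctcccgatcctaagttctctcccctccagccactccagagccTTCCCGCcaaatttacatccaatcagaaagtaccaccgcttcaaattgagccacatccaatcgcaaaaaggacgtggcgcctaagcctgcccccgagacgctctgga
Tdrd9: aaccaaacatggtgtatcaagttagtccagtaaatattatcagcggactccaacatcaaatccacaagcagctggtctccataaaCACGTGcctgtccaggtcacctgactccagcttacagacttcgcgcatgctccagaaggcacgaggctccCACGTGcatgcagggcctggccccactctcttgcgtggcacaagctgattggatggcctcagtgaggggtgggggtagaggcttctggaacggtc
Brdt: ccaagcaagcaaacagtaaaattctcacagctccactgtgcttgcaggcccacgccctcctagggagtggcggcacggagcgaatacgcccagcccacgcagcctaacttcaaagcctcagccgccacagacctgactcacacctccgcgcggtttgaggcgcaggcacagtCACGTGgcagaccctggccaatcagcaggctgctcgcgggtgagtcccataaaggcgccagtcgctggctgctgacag
Hormad2: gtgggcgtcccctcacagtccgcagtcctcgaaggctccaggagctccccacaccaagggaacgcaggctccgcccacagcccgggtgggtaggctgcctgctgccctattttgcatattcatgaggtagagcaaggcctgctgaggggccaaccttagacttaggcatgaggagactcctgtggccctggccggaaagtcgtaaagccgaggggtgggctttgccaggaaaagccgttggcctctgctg
Tex101: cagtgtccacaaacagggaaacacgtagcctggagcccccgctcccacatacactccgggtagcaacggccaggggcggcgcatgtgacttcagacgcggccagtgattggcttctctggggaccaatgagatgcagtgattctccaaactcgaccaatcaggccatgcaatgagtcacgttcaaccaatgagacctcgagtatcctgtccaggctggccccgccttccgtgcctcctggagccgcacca
Tuba3a and Tuba3b each held 1 E2F-type motif, ending 113 and 100 bases before the start. It lay in the longest stretch the 2 windows share, 33 bases that read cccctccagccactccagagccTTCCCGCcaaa. Tdrd9 held 2 E-boxes, ending 159 and 89 bases before the start, and Brdt held 1, ending 72 bases before it. Neither motif was found in the windows of Hormad2 and Tex101. The Tex101 window lies within the gene's own coordinates (24668007 to 24676675), so the start at their upstream end was not read. Most of the Tuba3b window, with its motif, likewise lies within that gene's own coordinates (145615757 to 145621479).

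Most of the members gave few or no reads in either group. Of the 39, 19 (48.7%) had no count in any of the 4 libraries, 11 had between 1 and 9 counts in all 4 together, and 9 had at least 10. The share without a count was 60.8% among all 54838 genes and 29.6% among the 21921 protein-coding ones, and all the members are protein-coding. At least 1 count was seen for 15 and 17 members in the shSet libraries (38.5% and 43.6%), against 11 and 11 in the shNC libraries (28.2% each). Among protein-coding genes these shares were 64.5% and 63.6% in shSet, against 62.3% and 61.8% in shNC, with library totals between 19513445 and 19615277 counts. A low count in these bulk samples can come from few cells with the transcript or from little of it per cell, and these cannot be told apart.

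**Figure D1:**
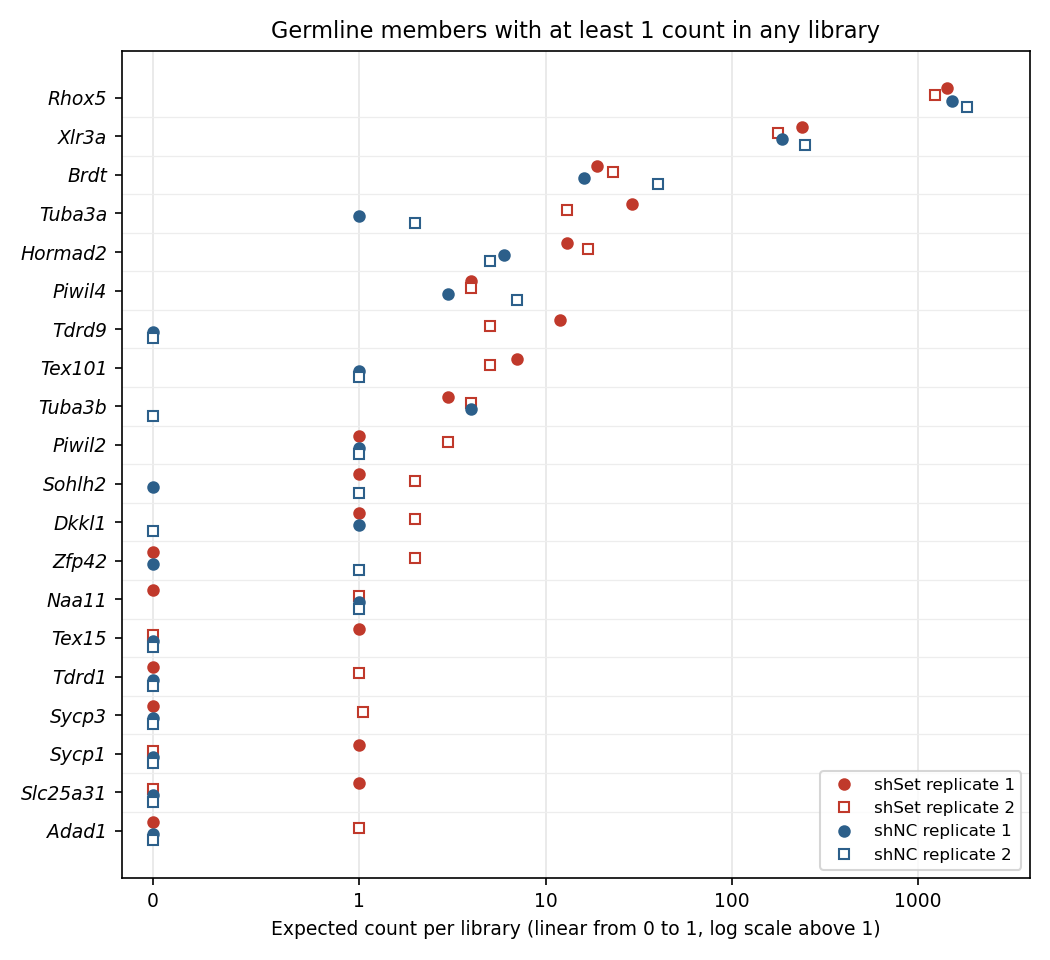
Expected counts of the 20 members with a count in any library, 1 row per gene and 1 marker per library (red shSet, blue shNC; circles replicate 1, squares replicate 2), on an axis that is linear from 0 to 1 and logarithmic above. Rhox5 stands highest in both groups, Tdrd9 has 12 and 5 counts in shSet and 0 and 0 in shNC, and the lowest 6 rows each hold a single shSet count.

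A low-count filter left 5 members to be tested (Rhox5, Xlr3a, Brdt, Tuba3a and Hormad2) and 34 untested. Tuba3a and Hormad2 passed it through their shSet libraries alone, so they could be tested only as higher in shSet. Of the 5, Tuba3a was called higher at an adjusted p under 0.05, and 0 were called lower in edgeR's quasi-likelihood test (2 higher and 0 lower at an unadjusted p under 0.05). Over the 12821 genes tested, 5.96% were called, 4.2% higher and 1.76% lower, with a median log2 fold change of -0.01. DESeq2 also called 1 member higher and 0 lower, and limma on log2(TPM + 1) called 0 in either direction, with 2 higher and 1 lower at an unadjusted p under 0.05. With either shNC library left out, 6 members were tested. Tdrd9 then entered through its shSet counts alone, as it had 0 counts in both shNC libraries. Such a fit rests on 1 shNC library.

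Below the filter, reads seen in shSet cells alone were counted. A count in at least 1 shSet library and in neither shNC library was found for 7 members, against 4.17% of all genes and 5.03% of the protein-coding ones. The reverse held for 0 members, against 2.97% of all genes and 2.91% of the protein-coding ones. For 6 of the 7 this was a single shSet count. The exception was Tdrd9, the 1 member with a count in both shSet libraries and in neither shNC library, a pattern that 0.981% of all genes and 1.35% of the protein-coding ones showed. Its reverse held for 0 members, against 0.458% of all genes and 0.461% of the protein-coding ones. By a rule chosen after the values were seen, at most 3 counts in the shNC group and at least 10 in the shSet group, 3 members stood out, Tuba3a, Tdrd9 and Tex101, beside 0.454% of all genes and 0.748% of the protein-coding ones. The reverse of that rule held for 0 members, against 0.14% of all genes and 0.169% of the protein-coding ones.

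**Figure D2:**
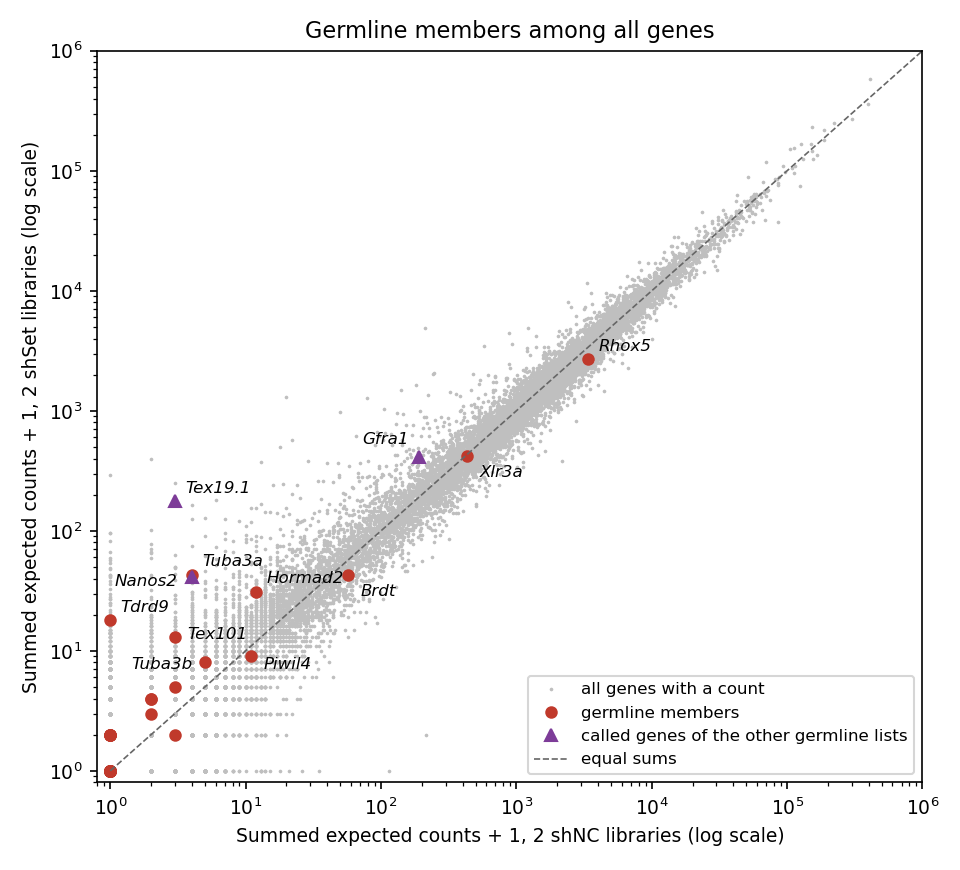
Summed expected counts plus 1 of the 2 shSet libraries (vertical, log scale) against those of the 2 shNC libraries (horizontal, log scale). All genes with a count are grey and the members are red circles. Purple triangles are Tex19.1, Nanos2 and Gfra1, the called genes of the other germline lists. Tuba3a, Tdrd9 and Tex101 lie above the line of equal sums at the low end, and Rhox5 and Xlr3a lie close to it among moderately and highly counted genes.

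The 10 members of the piRNA pathway and of nuage gave 18 and 13 counts in shSet and 4 and 8 in shNC, and none passed the filter. Tdrd9, a Tudor-domain RNA helicase of the nuage that works with the PIWI protein Piwil4 (chromosome 12, 111971559 to 112068854, plus strand), had 12 and 5 counts in the shSet libraries, against 0 and 0 in the shNC libraries. The shSet sum was 5.66-fold a floor of 3 counts over the shNC group, 0.0767 CPM. That floor covers counting error in the shNC group alone, so the value is no lower bound. The Tdrd9 locus overlaps Rd3l on the other strand, and whether strand was used in counting is not given in the sources used here. The groups of both PIWI proteins overlapped. Piwil4 (chromosome 9, 14696230 to 14740733, minus strand), which directs DNA methylation of transposons in fetal male germ cells, had 4 and 4 counts in shSet and 3 and 7 in shNC, a ratio of 0.799 (exact 95% binomial interval 0.274 to 2.25, counting error only). Piwil2, which takes part in making piRNAs, had 1 and 3 counts in shSet and 1 and 1 in shNC. The Tudor protein Tdrd1 and Tex15, which acts in piRNA-guided methylation, had 1 shSet count each. The germ cell helicase Ddx4, the nuage proteins Mael and Asz1, the piRNA precursor helicase Mov10l1 and the Tudor-domain kinase Stk31 were at 0 in all 4 libraries, so that any RNA from them lay under 0.0766 CPM in the shSet group and 0.0767 CPM in the shNC group by the same floor.

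Of the 7 genes of meiotic chromosomes, 4 were at 0 throughout: the axis protein Hormad1, the cohesin subunits Smc1b and Stag3, and the crossover protein Tex11. Hormad2, which marks unsynapsed chromosome axes (chromosome 11, 4345814 to 4441105, minus strand), had 13 and 17 counts in the shSet libraries, against 6 and 5 in the shNC libraries. The groups did not overlap, which of the tested members also held for Tuba3a and, in the lower direction, Rhox5. Groups did not overlap for 51.9% of all tested genes, with shSet above in 25.4% and below in 26.5%. The means were 0.766 ± 0.146 CPM in shSet cells and 0.281 ± 0.0353 CPM in shNC cells (SD, n = 2 each), and the log2 fold change of 1.44 (SE 0.517) did not pass the threshold in edgeR's quasi-likelihood test (Benjamini-Hochberg adjusted p = 0.144). Its TPM, a level per length, was 0.65 and 1.91 in shSet and 0.23 and 0.20 in shNC. The effective length behind these TPM values also differed, 1249.9 and 559.7 bases in shSet and 1654.7 and 1669.3 bases in shNC. The synaptonemal complex proteins Sycp1 and Sycp3 had 1 shSet count each. Sycp3 overlaps Chpt1 on the other strand, an enzyme gene of phospholipid synthesis that was itself higher, with 259 and 329.95 counts in shSet against 172 and 159 in shNC (log2 fold change 0.84, SE 0.208, edgeR Benjamini-Hochberg adjusted p = 0.0455).

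The 8 germ cell regulators included the member with the most reads. Rhox5, an X-linked homeobox gene of Sertoli cells that many tumour lines also express (chromosome X, 37804842 to 37808876, plus strand), had 1441 and 1235 counts in shSet and 1526 and 1848 in shNC. Both shSet libraries lay below both shNC libraries. The means were 68.3 ± 7.32 CPM in shSet cells and 86.3 ± 11.9 CPM in shNC cells (SD, n = 2 each), a log2 fold change of -0.32 (SE 0.151) that did not pass the threshold (edgeR Benjamini-Hochberg adjusted p = 0.256). Its level per length was 183.75 and 157.49 TPM in shSet and 201.06 and 244.93 TPM in shNC, above 94.9% to 96.8% of the genes with a count. Rhox5 was therefore well expressed in Hepa1-6 cells of either group. Brdt, a bromodomain protein that reads acetylated histones in spermatids (chromosome 5, 107331159 to 107387058, plus strand), had 19 and 23 counts in shSet and 16 and 40 in shNC. Its groups overlapped, and its log2 fold change of -0.40 (SE 0.460, edgeR Benjamini-Hochberg adjusted p = 0.676) became 0.39 without shNC replicate 2. Of the others, the spermatogonial factor Sohlh2 had 1 and 2 counts in shSet and 0 and 1 in shNC, and the pluripotency factor Zfp42 had 0 and 2 in shSet and 0 and 1 in shNC. The RNA-binding protein Dazl, the TFIID subunit Taf7l, the DNA methylation cofactor Dnmt3l and the homeobox gene Rhox2a were at 0 in all 4 libraries.

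Among the 5 X-linked cancer-testis members, Magea4, Magea5, Magea10 and Tex13b were at 0 in all 4 libraries. Xlr3a, of a multicopy X-linked family (chromosome X, 73086293 to 73097095, minus strand), had 237.5 and 177.9 counts in shSet and 185.5 and 247.0 in shNC. Its groups overlapped, with a log2 fold change of -0.04 (SE 0.227, edgeR Benjamini-Hochberg adjusted p = 0.944) that became 0.15 without shSet replicate 2 and 0.17 without shNC replicate 2. Its level per length was 14.75 and 11.26 TPM in shSet and 12.81 and 15.82 TPM in shNC. The counts of Xlr3a were fractional in all 4 libraries, so reads had been divided among near copies. Summed over Xlr3a, Xlr3b and Xlr3c there were 249 and 180 counts in shSet and 191.0 and 248 in shNC, a ratio of 0.977.

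The 9 genes of sperm enzymes, structure and surface held the one called member. Tuba3a, an alpha-tubulin of the testis (chromosome 6, 125278274 to 125286042, minus strand), had 29 and 13 counts in the shSet libraries, against 1 and 2 in the shNC libraries. The lower shSet library was still above both shNC libraries. The gene passed the low-count filter through its shSet libraries alone, so only a rise could be tested. The means were 1.07 ± 0.576 CPM in shSet cells and 0.0768 ± 0.0364 CPM in shNC cells (SD, n = 2 each), and Tuba3a rose with a log2 fold change of 3.71 (SE 0.75, edgeR Benjamini-Hochberg adjusted p = 0.0183). The ratio of the summed counts was 14.0 (exact 95% binomial interval 4.47 to 70.5, counting error only), and TPM was 1.46 and 0.65 in shSet and 0.05 and 0.10 in shNC. The call held without each library in turn (adjusted p between 0.000114 and 0.0412), was lost in limma on log2(TPM + 1) (adjusted p = 0.0723), and was lost without a low-count filter, where 0 of all genes passed. The locus overlaps 4930417O13Rik on the other strand, and Tuba3a has a near copy in Tuba3b. The counts of both tubulin genes were whole numbers in every library, unlike the fractional counts of Xlr3a. Tuba3b (chromosome 6, 145615757 to 145621479, plus strand) had 3 and 4 counts in shSet and 4 and 0 in shNC, a ratio of 1.75 (exact 95% binomial interval 0.444 to 8.14). Summed over both tubulin genes there were 32 and 17 counts in shSet and 5 and 2 in shNC.

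Tex101, a surface protein of male germ cells that is needed for sperm to reach the egg (chromosome 7, 24668007 to 24676675, minus strand), had 7 and 5 counts in shSet and 1 and 1 in shNC. The groups did not overlap, and the ratio of the sums was 5.99 (exact 95% binomial interval 1.33 to 55.1, counting error only). It lay below the filter and was not tested. The other members of this group were near 0: the acrosomal protein Dkkl1 had 1 and 2 counts in shSet and 1 and 0 in shNC, and the acetyltransferase Naa11 had 0 and 1 in shSet and 1 and 1 in shNC. The sperm ADP/ATP carrier Slc25a31 and the spermatid RNA-binding protein Adad1 had 1 shSet count each. The testis dipeptidase Dpep3 and the sperm lactate dehydrogenase Ldhc were at 0 in all 4 libraries.

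Summed over the 39 members, counts were 1772 and 1497 in shSet and 1745 and 2154 in shNC, a ratio of 0.838, and Rhox5 made up most of them. Without Rhox5 the sums were 331 and 262 in shSet and 219 and 306 in shNC, a ratio of 1.13. Without Rhox5 and Xlr3a they were 93 and 84 in shSet and 34 and 59 in shNC, a ratio of 1.9, and for the 30 members with under 10 counts 6 and 13 in shSet and 3 and 4 in shNC. The shSet and shNC libraries overlapped in the sums without Rhox5, and did not overlap without Rhox5 and Xlr3a. The excess without these genes came mainly from Tuba3a (42 summed counts in shSet, 3 in shNC), Hormad2 (30 and 11), Tdrd9 (17 and 0) and Tex101 (12 and 2). Brdt (42 in shSet, 56 in shNC), Piwil4 (8 and 10) and Naa11 (1 and 2) went the other way. The 30 members with under 10 counts together had 19 counts in shSet and 7 in shNC, a ratio of 2.71, with both shSet libraries higher. The direction of the sums thus depended on which genes were included, and a shift across the list was not tested.

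Other germline genes were read from lists by function. Of 17 other piRNA genes, 7 were tested, 1 rose and 0 fell, with a median log2 fold change of 0.31. Over all tested genes 4.2% were higher and 1.76% lower, with a median of -0.01. The gene that rose was Tex19.1, a germ cell and placental protein known for restraint of retrotransposons (chromosome 11, 121146143 to 121148319, plus strand), with 99 and 76 counts in the shSet libraries, against 2 and 0 in the shNC libraries. Both shSet libraries were far above both shNC libraries. Tex19.1 passed the low-count filter through these shSet libraries alone, so it could be called only as higher. The means were 4.47 ± 0.823 CPM in shSet cells and 0.0510 ± 0.0722 CPM in shNC cells (SD, n = 2 each), with a log2 fold change of 6.29 (SE 0.621, edgeR Benjamini-Hochberg adjusted p = 0.000343) and a ratio of sums of 87.3 (exact 95% binomial interval 23.8 to 727). The size of the fold rests on 2 shNC counts: the log2 fold change was 5.36 without shNC replicate 2 and 9.46 without shNC replicate 1, where the remaining shNC library had no count and the fitted value is no bound. The other 6 tested genes of that list were Tdrd7, Gtsf1, Pld6, Henmt1, Exd1 and Morc1. The largest log2 fold changes among these 6 were 1.29 for Morc1 and 0.80 for Pld6, with edgeR Benjamini-Hochberg adjusted p of 0.24 and 0.192. Morc1 also passed the filter through its shSet libraries alone.

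Of 25 other regulators of germ cells and pluripotency, 9 were tested, 2 rose and 0 fell, with a median log2 fold change of 0.30 and the same 4.2% and 1.76% over all tested genes. Nanos2, an RNA-binding protein that keeps spermatogonial stem cells undifferentiated (chromosome 7, 18987400 to 18988962, plus strand, overlapped by Gm45058 on the other strand), had 24 and 16 counts in shSet and 0 and 3 in shNC. The log2 fold change was 3.64 (SE 0.785, edgeR Benjamini-Hochberg adjusted p = 0.0244), and the ratio of the sums was 13.3 (exact 95% binomial interval 4.24 to 67.3). Nanos2, like Tex19.1, passed the low-count filter through the shSet libraries alone, so it could be called only as higher. The log2 fold change was 2.71 without shNC replicate 1 and 7.33 without shNC replicate 2, where the remaining shNC library had no count and the fitted value is no bound. Gfra1, the receptor on those stem cells for the growth factor GDNF, had 227 and 184 counts in shSet and 86 and 103.6 in shNC. Both shSet libraries were higher, at 10.5 ± 1.53 CPM in shSet cells and 4.86 ± 0.666 CPM in shNC cells (SD, n = 2 each), with a log2 fold change of 1.12 (SE 0.226, edgeR Benjamini-Hochberg adjusted p = 0.0196) and an adjusted p of 0.057 without shSet replicate 1 and of 0.142 in limma on log2(TPM + 1). The pluripotency genes Dppa2 and Dppa4 were expressed in both groups and not called: Dppa2 had 31.46 and 32.09 CPM in shSet and 27.04 and 26.44 CPM in shNC, and Dppa4 had 29.52 and 23.40 CPM in shSet and 23.67 and 28.85 CPM in shNC.

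The lists of meiosis genes, of Mage, Xlr, Rhox and other mostly X-linked genes and of spermatid genes held no calls. Of 28 other meiosis genes, 11 were at 0 throughout, 8 were tested, with a median log2 fold change of -0.10, and 0 were called in edgeR, DESeq2 or limma. At an unadjusted p under 0.05 edgeR had 0 higher and 1 lower, Meiob, a DNA-binding protein of meiotic recombination with 14 and 17 counts in shSet and 26 and 33 in shNC. Of 38 other genes of the Mage, Xlr and Rhox families and other cancer-testis genes, of which all but Mageb3 on chromosome 2 are on chromosome X, 25 were at 0 and 4 were tested. Of the 4, Maged1, Maged2 and Magee1 belong to the Mage genes that many somatic tissues also express. The median log2 fold change was -0.37, with 0 called by edgeR, DESeq2 or limma and 0 at an unadjusted p under 0.05. Magea6 was the 1 Magea gene of the list with reads, 435 and 566 counts in shSet and 560 and 644 in shNC, with overlapping groups. Of 19 genes of haploid spermatids, 9 were at 0 and 1 was tested, and the list summed to 26 and 26 counts in shSet and 12 and 13 in shNC. The tested gene, the sperm kinase Tssk6, had 16.02 and 15.01 counts in shSet and 4 and 7.01 in shNC and was not called in edgeR (unadjusted p = 0.0174, Benjamini-Hochberg adjusted p = 0.133), DESeq2 or limma. Tssk6 passed the low-count filter through its shSet libraries alone, so only a rise could be tested. It held 31 of the list's shSet counts and 11 of its shNC counts.

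**Figure D3:**
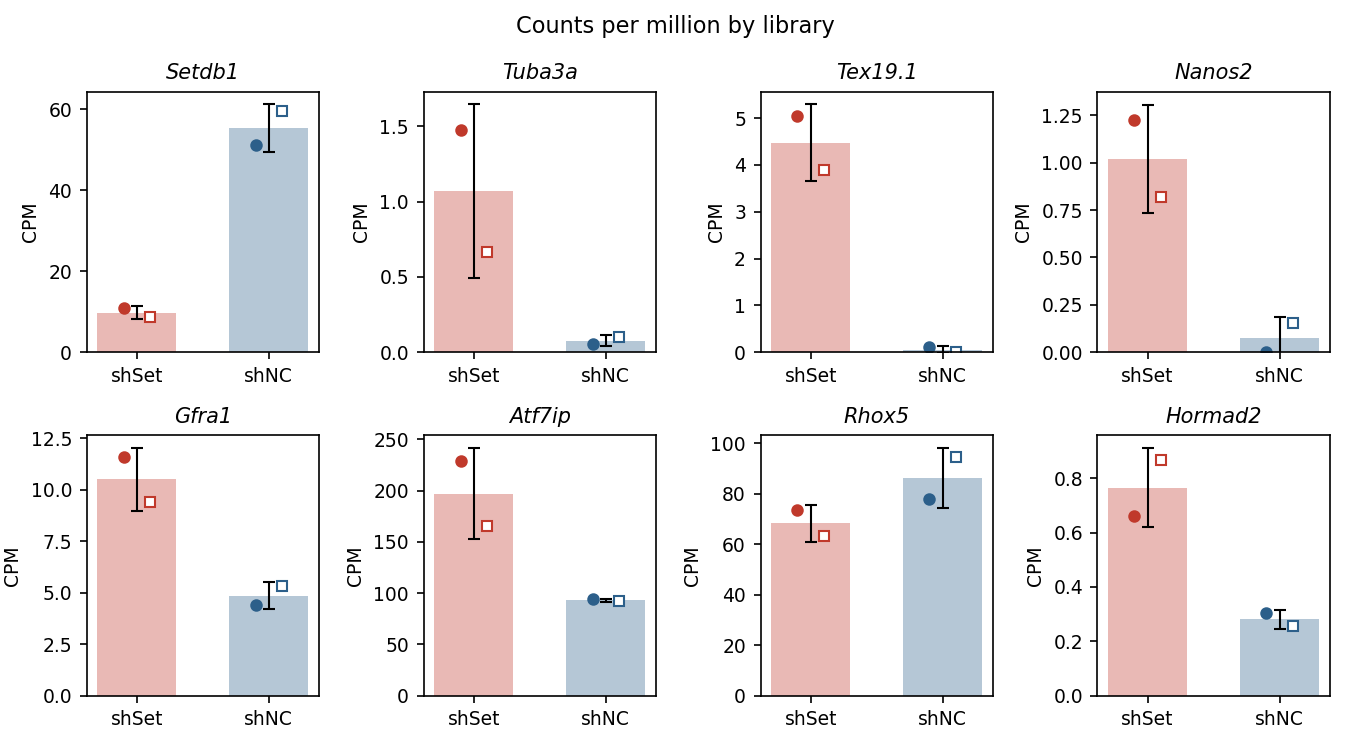
CPM in each library for Setdb1, Tuba3a, Tex19.1, Nanos2, Gfra1, Atf7ip, Rhox5 and Hormad2, with shSet at the left (red) and shNC at the right (blue) in each panel, circles for replicate 1 and squares for replicate 2, bars at the mean and error bars of 1 SD (n = 2 each) cut at 0. Tuba3a, Tex19.1, Nanos2, Gfra1 and Atf7ip were called higher in shSet and Setdb1 lower, and Rhox5 and Hormad2 were not called.

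The repressors of germline genes were all expressed, and 23 of 25 were not called, with a median log2 fold change of -0.06. Apart from Setdb1 the called gene was Atf7ip, the partner protein that stabilizes Setdb1 in the nucleus, with 4482 and 3238 counts in shSet and 1846 and 1796 in shNC. It rose, at 197 ± 44.6 CPM in shSet cells and 93.1 ± 1.52 CPM in shNC cells (SD, n = 2 each), with a log2 fold change of 1.09 (SE 0.166, edgeR Benjamini-Hochberg adjusted p = 0.00554), and was not called in limma on log2(TPM + 1) (adjusted p = 0.0743). The log2 fold changes of the Polycomb subunits Pcgf6, L3mbtl2, Mga and E2f6 were 0.12, 0.27, -0.04 and -0.34, none called. The DNA methyltransferase Dnmt1 had 161.9 and 90.71 CPM in shSet and 159.8 and 169.3 CPM in shNC, so that shSet replicate 2 stood below the other 3 libraries, and it was not called.

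The promoter windows of 35 of the 39 members were found in the RefSeq table. An E-box lay in the 250 bases before a start of 14 of the 35 (40.0%), against 7.61% of 17492 protein-coding genes and 6.86% of all 27025 genes of the table. An E2F-type motif lay in the windows of 7 (20%), against 5.69% of protein-coding genes and 4.38% of all. Hormad1, Sycp3 and Ddx4 held both motifs, and 18 members (51.4%) held at least 1 of them, against 12.7% of protein-coding genes. Of the members with an E-box, 8 had no count in any library, 4 had 1 to 9 counts and 2 had at least 10, beside 18 without a count among the 35. Of those with an E2F-type motif, 3 had no count, 2 had 1 to 9 counts and 2, Tuba3a and Tuba3b, had at least 10. The median number of CpG dinucleotides, taken over genes from the window of each gene with the most, was 12 for the members, 11 for protein-coding genes and 6 for all genes. Genes with several starts in the table count as holding a motif where any of their windows does, and a match is of letters only.

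**Figure D4:**
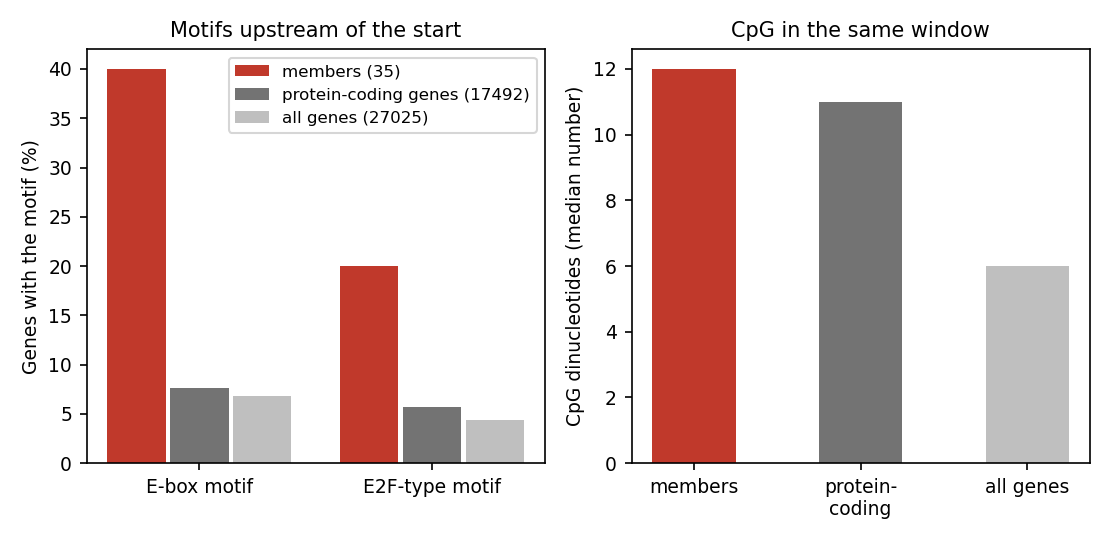
Left, percentage of genes with an E-box or an E2F-type motif in the 250 bases before a start, for the 35 members with a RefSeq window, 17492 protein-coding genes and all 27025 genes of the table. Right, the median over genes of the highest number of CpG dinucleotides in any of a gene's windows, 12 for the members, 11 for protein-coding genes and 6 for all genes.

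Neighbouring genes were read for the loci of the members. Of 62 tested genes within 50 kb of a member, 4 rose and 0 fell in edgeR's quasi-likelihood test: Gpa33 beside Mael, Chpt1 over Sycp3, Mid2 beside Tex13b and Scnn1a beside Tuba3a. Over all tested genes 4.2% were higher and 1.76% lower. Scnn1a, a subunit of the epithelial sodium channel, had 62 and 68 counts in shSet and 24 and 25 in shNC (log2 fold change 1.41, SE 0.299, edgeR Benjamini-Hochberg adjusted p = 0.0239). Gpa33, a cell surface antigen of intestinal epithelium, had 190 and 179 counts in shSet and 32 and 37 in shNC (log2 fold change 2.43, SE 0.249, edgeR Benjamini-Hochberg adjusted p = 0.000659), while Mael beside it had no count. Mid2, a microtubule-associated ubiquitin ligase, had 14 and 24 counts in shSet and 3 and 2 in shNC, and Tex13b beside it had none. Mid2 passed the low-count filter through its shSet libraries alone, so it could be called only as higher.

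The identity of the cells was read from marker lists. The 11 hepatoma and hepatocyte markers summed to 99830 and 89886 counts in shSet and 82852 and 88048 in shNC, with Afp at 20172 and 20671 in shSet and 14673 and 16044 in shNC, while Ttr and Apoa1 had at most 7 counts in any library. Albumin was higher in shSet (24240 and 20655 counts in shSet, 11834 and 11740 in shNC; log2 fold change 0.94, edgeR Benjamini-Hochberg adjusted p = 0.00563), as was Gpc3 (log2 fold change 2.57), and Hnf4a was lower (log2 fold change -0.60). Of the 8 Sertoli cell markers 3 were tested and 0 were called, summing to 1456 and 1616 counts in shSet and 1910 and 1781 in shNC, with Rhox8 at 0, Amh at 0 to 4 counts and Wt1 at 5 and 4 in shSet and 0 and 3 in shNC. Nearly all of the Sertoli sum came from Sox9 (853 and 914 counts in shSet, 1161 and 1140 in shNC; log2 fold change -0.37) and Gata4 (589 and 692 in shSet, 732 and 617 in shNC; log2 fold change -0.06), and the third tested gene was Inhba (6 and 6 in shSet, 13 and 19 in shNC; log2 fold change -1.38). The 7 leukocyte markers summed to 341 and 385 counts in shSet and 222 and 165 in shNC with Cd3e at 0 and Ptprc at 0 to 4 counts. Most of the leukocyte sum came from Cd68, with 227 and 189 counts in shSet and 120 and 120 in shNC, and Csf1r, with 100.56 and 180.58 in shSet and 73.82 and 25.2 in shNC. Lyz2 went the other way, with 5 and 8 counts in shSet and 24 and 20 in shNC, and Adgre1 had 5 and 3 in shSet and 0 and 0 in shNC. The 3 that were tested, Cd68, Csf1r and Lyz2, had log2 fold changes of 0.80, 1.52 and -1.73 and were not called (edgeR Benjamini-Hochberg adjusted p of 0.0561, 0.0811 and 0.0664). The 4 endothelial markers summed to 42 and 21 counts in shSet and 10 and 8 in shNC, nearly all from Pecam1, which was not called (log2 fold change 1.88, edgeR Benjamini-Hochberg adjusted p = 0.0593). The 7 fibroblast markers summed to 32768 and 31981 counts in shSet and 28465 and 30601 in shNC, nearly all from Dcn. Of these, Col1a1 was higher in shSet, with 60 and 79 counts in shSet and 16 and 15 in shNC (log2 fold change 2.17, edgeR Benjamini-Hochberg adjusted p = 0.00652). The part of these differences in the germline genes' values was not tested.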

How the data were processed

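Total RNA of 4 Hepa1-6 samples was sequenced from directional libraries, per the labels' protocols. The expected counts deposited by the authors are, per the file headers, RSEM-style estimates per gene, with ambiguous reads shared out between genes. The TPM values deposited by the authors are scaled by effective length to the same sum in each library, and the deposited effective length, another column of the file headers, is in bases. Per the submitters' processing notes, STAR, RSEM, FastQC and DESeq2 were used, with mm10 and GRCm38 as builds. Annotation release and strand use: not given in the sources used here. The 4 tables hold 115821 rows each, of which 54838 are Ensembl genes and 60983 are named by position. Coordinates come from GENCODE M21 (54723 identifiers matched).

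Expected counts were rounded and tested over all Ensembl genes with edgeR 4.0.16 (R 4.3.3; TMM, quasi-likelihood F-test, filterByExpr, group alone, Benjamini-Hochberg threshold 0.05; 12821 genes, biological coefficient of variation 13.6%, 2 residual degrees of freedom). CPM was taken over library totals of 19615277 and 19568849 counts for shSet and 19600005 and 19513445 for shNC, so 1 CPM is about 19.6 counts. Intervals are exact 95% binomial, floors are 3 counts over a group, and both cover counting error only. An exact permutation of 2 against 2 libraries cannot go below p = 0.333 and was not used. Alternatives were DESeq2 1.42.0, limma 3.58.1 on log2(TPM + 1), other filters and scalings, position-named rows in the fit, each library left out and replicate numbers as a block; the legacy fit and a crossed block were added after the data had been seen.

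The members and lists were chosen with earlier results of these data known. Setdb1, every member and the called genes of each other list are named, with values per library from 10 counts; other list genes, neighbours and markers were chosen after their values were seen. Iho1 and Magec2 matched no row, and 1 marker is not reported here by name. RefSeq promoter windows (GRCm38.p6, 300 bases, of which the 250 before the start were read) were lacking for Tex11, Tex15, Piwil2 and Adad1; the last 20 bases of 38 of 43 windows lie in a GENCODE transcript of the gene, and those of Tuba3a do not.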

Additional observations from a re-analysis of the deposited data

How the results depend on the processing

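The number of genes called, 764, became 0 without a low-count filter (3379 at an unadjusted p under 0.05), 334 in limma on log2(TPM + 1), and between 740 and 1677 with 1 library left out, the highest without shNC replicate 1. The 1 called member became 0 without a filter, 0 with a filter of 1 CPM in 2 libraries, which removed Tuba3a, 0 in limma, and 1 to 2 with 1 library left out. Of 54 tested genes of the other lists, repressors included, 5 were called, 4 higher and 1 lower, beside 5.96% of all tested genes. The lower one was Setdb1 itself. The 5 became 0 without a filter and 3 in limma, with Setdb1 still among them in limma. The 1 member seen in both shSet libraries and neither shNC library became 2 to 4 with 1 library left out, since the rule then asks for fewer libraries. The ratio of summed counts, 0.838, became 1.13 without Rhox5 and lay between 0.759 and 0.937 with 1 library left out. With 1 library left out, log2 fold changes ran from -0.90 to 0.39 for Brdt and from -0.26 to 0.17 for Xlr3a, neither called. Without a filter the adjusted p was 0.0877 for Setdb1 and Tex19.1, 0.187 for Tuba3a, 0.188 for Atf7ip, 0.185 for Gfra1 and 0.236 for Nanos2, and in limma 0.142 for Gfra1. Of 127 comparisons of 10 genes' fold changes with their alternatives, 114 kept direction and side of the threshold, 10 kept direction and lost the threshold, and 3 changed sign. The labels do not say that replicate numbers pair the libraries (correlation of deviations -0.18); the replicate block gave 862 calls and 1 called member and ended no call among these 10 genes, and the block with crossed numbers gave 2339 calls. Where the cause of a change is not given it was not tested. A count of 0 in a group allows up to 0.0766 CPM in shSet or 0.0767 CPM in shNC, and 34 members were too low to test.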
